A study of Rattus norvegicus with 6 samples.

Results

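The imprinted Dlk1-Dio3 locus was represented by 7 mature miRNAs in small RNA libraries of rat nucleus pulposus, out of 442 distinct sequences and 204 established miRNAs in the count table. They were taken by name, as every listed sequence of 10 precursor names of the locus (miR-127, miR-154, miR-379, miR-382, miR-409a, miR-410, miR-411, miR-434, miR-495 and miR-541). The 7 were miR-127-3p, miR-379-5p, miR-382-3p, miR-382-5p, miR-411-3p, miR-411-5p and miR-434-3p. No sequence was listed under the other 5 names. The nucleus pulposus is the soft centre of a disc of the spine. The IDD group (intervertebral disc degeneration, 3 libraries) came from discs compressed for 4 weeks, and the Sham group (3 libraries) is labelled as carrying K-wires for 4 weeks. Strain, age and whether each library came from its own animal are not given in the sources used here, so p-values reflect the variation among these libraries, which may be technical.

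The locus is expressed by parent of origin. In mouse and human the protein-coding genes Dlk1, Rtl1 and Dio3 are read from the paternal chromosome, and the miRNAs are cut from long noncoding transcripts of the maternal chromosome. miR-127 and miR-434 lie opposite the coding sequence of Rtl1, and in mouse miR-127 directs cleavage of the Rtl1 mRNA. miR-379, miR-411 and miR-382 belong to the large miRNA cluster further along, which in mouse is abundant in embryo, placenta and brain. A mature miRNA finds its targets mainly through its seed, bases 2 to 8.

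The deposited sequences of the 7 miRNAs are shown to let their seeds be compared, with the seed in capitals.
miR-127-3p: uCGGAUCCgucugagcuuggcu
miR-434-3p: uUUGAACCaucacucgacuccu
miR-379-5p: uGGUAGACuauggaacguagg
miR-411-5p: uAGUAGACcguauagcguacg
miR-411-3p: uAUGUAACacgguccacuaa
miR-382-5p: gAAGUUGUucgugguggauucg
miR-382-3p: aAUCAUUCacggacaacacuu

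No 2 of these seeds were the same, and none was shared with another established miRNA of the table. miR-379-5p and miR-411-5p were the most alike, with 14 of 21 bases identical and seeds that differ at 1 base. Each of the 7 sequences was identical to the RefSeq entry of its name. On GRCr8, the build of the RefSeq table and not that of the deposited files, all lie on the plus strand of chromosome 6, with miR-127-3p at chr6:134328510-134328531, miR-434-3p at chr6:134330451-134330472 and miR-379-5p at chr6:134543460-134543480. miR-411-5p lies at chr6:134544604-134544624 and miR-411-3p at chr6:134544639-134544658. miR-382-5p lies at chr6:134569956-134569977 and miR-382-3p at chr6:134569992-134570012. By the same annotation the hairpins of miR-127 and miR-434 fall within the span of Rtl1, and those of miR-379, miR-411 and miR-382 follow between Rtl1 and Dio3. The table lists a second precursor, mir-434-2, for miR-434-3p with the same sequence and counts, so its tags cannot be assigned to either.

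Of the 4 precursor arms of the neighbouring hairpins miR-379 and miR-411, 3 were listed. Their RefSeq hairpins are shown with the listed arms in capitals.
Mir379: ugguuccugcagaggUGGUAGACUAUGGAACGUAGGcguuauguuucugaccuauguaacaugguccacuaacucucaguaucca
Mir411: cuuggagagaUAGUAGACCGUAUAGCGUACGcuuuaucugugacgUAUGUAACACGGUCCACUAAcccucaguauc

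The 7 miRNAs were rare. They held 319 tags in all, 147 in IDD and 172 in Sham, in libraries of 169783 to 253807 tags. miR-127-3p and miR-379-5p carried 85.3% of these. Those 2 passed the filter on low counts and were tested, and the other 5 never exceeded 4 tags in a library. Levels are given as CPM, the deposited tags per 1000000 of the TMM-scaled library total. Cells of the table can be blank, and no listed count is below 2, so a blank may be 0 or 1. It was set to 0. A count of 0 allows up to 3 tags, worth 11.6 to 16.9 CPM depending on the library, for counting error only.

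miR-379-5p fell in compressed discs. It had 216, 202 and 180 CPM in Sham 1, 2 and 3, from 46, 48 and 32 tags. In IDD 1, 2 and 3 it had 81.2, 112 and 95.9 CPM, from 21, 22 and 23 tags. The groups did not overlap, and the highest IDD library lay below the lowest Sham library. The mean fell from 199 ± 18.0 to 96.5 ± 15.6 CPM (SD, n = 3 each), 2.10-fold lower, with a log2 fold change of −1.07 (SE 0.18, edgeR's quasi-likelihood test with Benjamini-Hochberg adjustment, adjusted p = 0.000226). The SE is the size of the log2 fold change divided by the root of edgeR's F. It may be too small, as DESeq2 gave an SE of 0.312 (DESeq2's own test, adjusted p = 0.00123). From summed counts alone the ratio of Sham to IDD was 2.11 (95% exact interval 1.55 to 2.89, counting error only).

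miR-127-3p had slightly more tags in IDD, and the difference did not pass the test. It had 42.3, 54.7 and 50.7 CPM in Sham 1, 2 and 3, from 9, 13 and 9 tags. In IDD 1, 2 and 3 it had 58.0, 86.9 and 70.9 CPM, from 15, 17 and 17 tags. The lowest IDD value lay just above the highest Sham value. The means were 71.9 ± 14.5 CPM in IDD and 49.2 ± 6.32 CPM in Sham (SD, n = 3 each), a log2 fold change of 0.51 (SE 0.23, edgeR's quasi-likelihood test, adjusted p = 0.164). This SE may be too small, as the SE from DESeq2 was 0.475. The ratio of summed counts was 1.43 with a 95% exact counting interval of 0.894 to 2.32, which includes no change. The call depended on the setting. The adjusted p of edgeR was 0.0468 with library size alone, 0.211 with DESeq2's size factors and 0.371 when scaled on established miRNAs. With limma on the authors' normalized values plus 1, which changes the values and the test together, it was 0.00517.

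**Figure D1:**
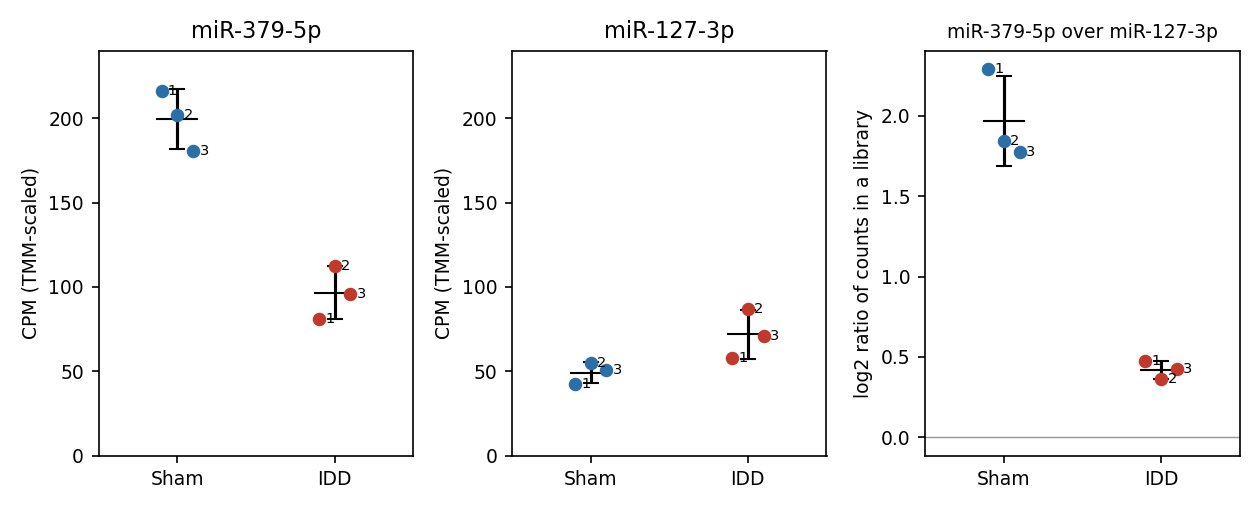
CPM of miR-379-5p and miR-127-3p (y axis, TMM-scaled) and the log2 ratio of their counts (y axis of the right panel) in each Sham and IDD library, numbered by replicate, with black bars for the mean and SD (n = 3). The 3 IDD libraries lie below the Sham libraries for miR-379-5p and for the ratio, and the miR-127-3p values of the groups lie close together.

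Among all 131 tested sequences, 30.5% passed as lower in IDD and 29% as higher, and the groups did not overlap for 66.4%. Passing the test, or having groups that do not overlap, therefore does not set these 2 miRNAs apart. The median log2 fold change of all tested sequences was 0.03, and 19 of the 131 had a lower value than miR-379-5p.

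**Figure D2:**
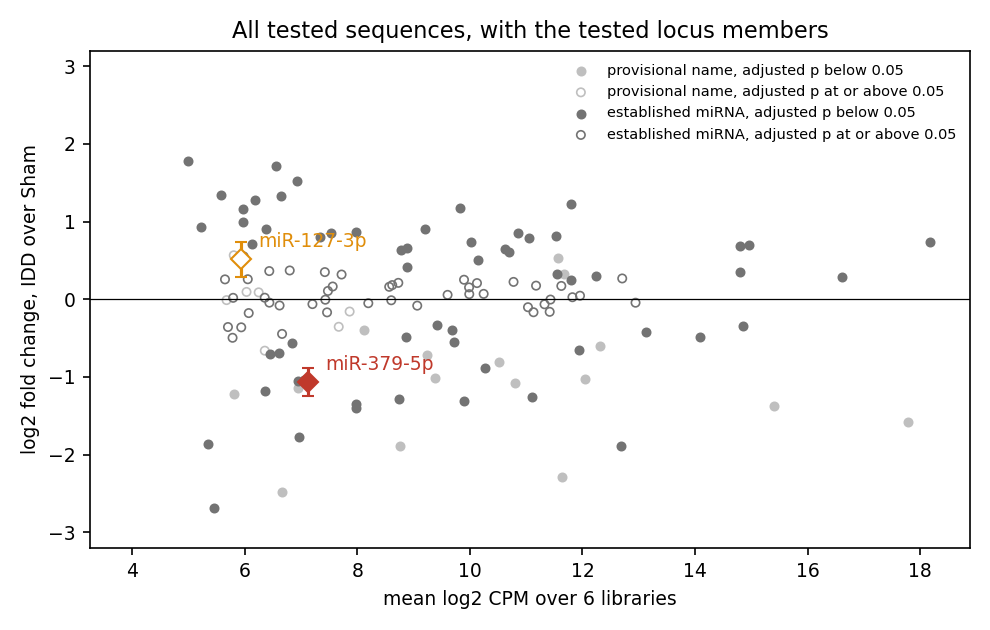
Log2 fold change of IDD over Sham (y axis) against mean log2 CPM over the 6 libraries (x axis) for the tested sequences, filled where the adjusted p was below 0.05, with 2 of the 131 beyond the y axis. miR-379-5p lies at −1.07 and miR-127-3p at 0.51, each with its SE.

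The balance of the 2 miRNAs was also compared within each library, which needs no scaling of library totals. In Sham 1, 2 and 3 there were 5.11, 3.69 and 3.56 tags of miR-379-5p per tag of miR-127-3p. In IDD 1, 2 and 3 there were 1.40, 1.29 and 1.35. The IDD libraries were nearly alike and all lay below the Sham libraries. The mean log2 ratio (0.5 added to each count) was 0.42 ± 0.055 in IDD and 1.97 ± 0.280 in Sham (SD, n = 3 each), a difference of −1.55 (two-sided exact permutation p = 0.1, the smallest that 3 against 3 libraries allow). It was the only pair compared. On summed counts the ratio was 3.00 times higher in Sham than in IDD, with a 95% exact interval of 1.70 to 5.38 that covers counting error only.

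Shares of tags depended on what they were taken of. The tags under provisional names, which have no established miRNA name, made up 43.8% to 50.5% of a Sham library and 16.9% to 22.2% of an IDD library. miR-379-5p held 0.0187% ± 0.000494 of all tags in Sham and 0.0103% ± 0.00158 in IDD. Of the tags of established miRNAs alone it held 0.0352% ± 0.00156 and 0.0128% ± 0.00234 (SD, n = 3 each, two-sided exact permutation p = 0.1 for either share). It was lower in IDD on both. miR-127-3p held 0.00467% ± 0.000976 of all tags in Sham and 0.00765% ± 0.00145 in IDD (exact permutation p = 0.1). Of established miRNA tags it held 0.00873% ± 0.00135 and 0.00952% ± 0.00210, and there the groups overlapped (exact permutation p = 0.5). Together the 7 miRNAs held 0.0482% ± 0.00112 of established miRNA tags in Sham and 0.0283% ± 0.00436 in IDD, and 0.0256% ± 0.00106 and 0.0228% ± 0.00290 of all tags.

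The 2 arms of the miR-411 hairpin were each listed in a different group. miR-411-5p had 2, 2 and 3 tags in IDD 1, 2 and 3 and was blank in every Sham library. miR-411-3p had 3, 2 and 2 tags in Sham 1, 2 and 3 and was blank in every IDD library. All these values lie at or under 3 tags, so no fold is given for either arm. Of the 43 precursors with both arms listed under established names, miR-411 was the only one whose arms were listed in all libraries of opposite groups and blank in the rest. Only rare arms can be blank in a whole group, so the 43 give no rate for this pattern. Tags of miR-411-3p may also be hard to assign, as the unlisted miR-379-3p matches it at 19 of 20 bases from its second base.

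miR-434-3p had 4, 2 and 3 tags in IDD 1, 2 and 3 and was blank in Sham. Its mean of 12.7 ± 2.63 CPM in IDD lies at the level that a count of 0 allows, and no fold is given. Of the 204 established miRNAs, 4.41% were present in every IDD library with no Sham listing, and 6.86% were present in every Sham library with no IDD listing. These were 9 and 14 miRNAs, of which 8 and 10 had at most 10 tags in any library, so most were rare. Of the 7 locus miRNAs, miR-411-5p and miR-434-3p had the first pattern and miR-411-3p the second.

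Both arms of miR-382 were listed in IDD. miR-382-5p had 2 tags in each of the 6 libraries, the lowest count the table lists, or 8.77 ± 1.30 CPM in IDD and 9.69 ± 1.46 CPM in Sham. miR-382-3p had 4, 2 and 4 tags in IDD 1, 2 and 3 and 2 tags in Sham 1, and it was blank in Sham 2 and Sham 3. The ratio of its summed counts, IDD over Sham, was 4.52 (95% exact interval 0.964 to 42.5). The interval includes no change.

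Without the filter on low counts all 442 sequences entered the fit, of which 38% passed as lower in IDD and 26.5% as higher. Of the 7 locus miRNAs, miR-379-5p and miR-411-3p then passed as lower, miR-382-3p, miR-411-5p and miR-434-3p passed as higher, and miR-127-3p and miR-382-5p did not pass. In this unfiltered edgeR fit the adjusted p was 0.00378 for miR-411-3p, 0.00531 for miR-411-5p, 0.00197 for miR-434-3p and 0.0338 for miR-382-3p. These rest on 7, 7, 9 and 12 tags over the 6 libraries, with blanks taken as 0.

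**Figure D3:**
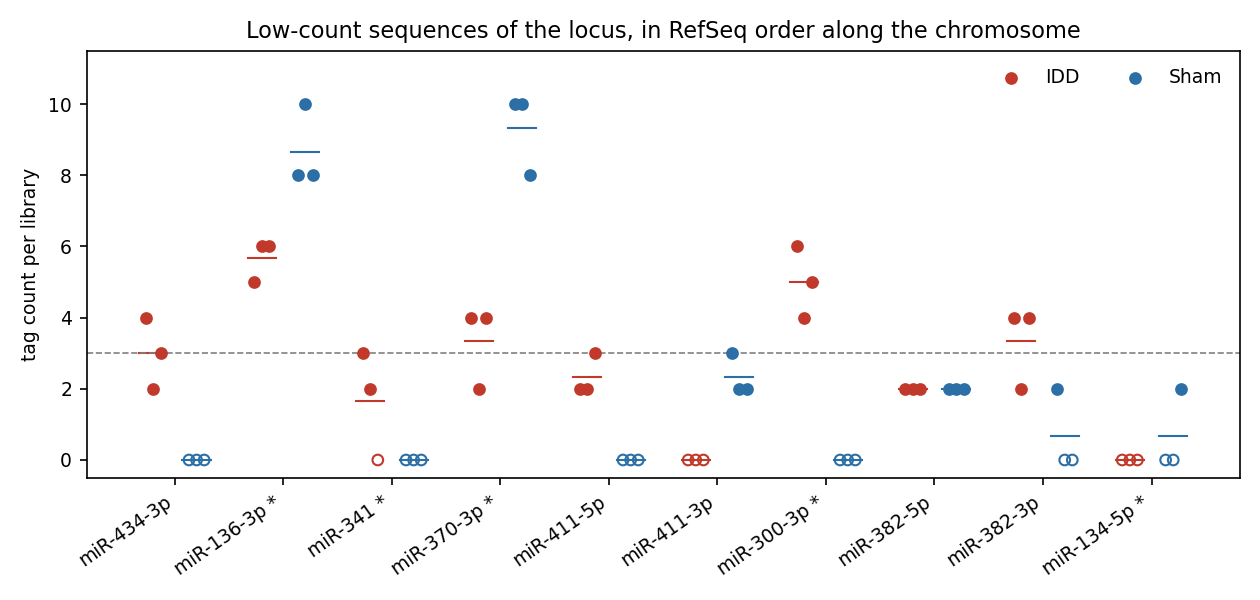
Tag counts per library (y axis) of the locus miRNAs below the filter on low counts, in RefSeq order along the chromosome (x axis), with open circles for blank cells, short lines for group means, a dashed line at 3 tags and an asterisk for locus miRNAs outside the 7. miR-434-3p, miR-411-5p, miR-300-3p and miR-341 were listed in IDD alone, and miR-411-3p and miR-134-5p in Sham alone.

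A wider list of the locus placed these values beside their neighbours. RefSeq annotates 53 miRNA hairpins between Dlk1 and Dio3 with 91 mature sequences, and 12 of these, from 10 hairpins, were listed in the table. Beside the 7 they were miR-134-5p, miR-136-3p, miR-300-3p, miR-341 and miR-370-3p, none of which passed the filter. Of the 12, 9 were listed in all 3 IDD libraries and 6 in all 3 Sham libraries. The IDD libraries held more tags of established miRNAs, 147728 to 204707 against 95412 to 135609 in Sham. Counting provisional names as well, the Sham libraries listed more sequences, 305 to 322 against 258 to 273 in IDD. Counts like the 9 and 6 were not made over all established miRNAs, so these are not read as a trait of the locus.

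miR-370-3p, whose hairpin lies between those of miR-127 and miR-379, had 10, 10 and 8 tags in Sham 1, 2 and 3. It had 4, 2 and 4 tags in IDD 1, 2 and 3. The groups did not overlap, and the ratio of summed counts, Sham over IDD, was 3.09 (95% exact interval 1.46 to 7.14). Without the filter it passed as lower in IDD (edgeR, adjusted p = 0.00424), as did 38% of the 442 sequences.

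miR-136-3p, from a hairpin within the span of Rtl1 like miR-127, had 8, 10 and 8 tags in Sham 1, 2 and 3 and 5, 6 and 6 tags in IDD 1, 2 and 3. Its CPM did not overlap between the groups, but the ratio of 1.69, Sham over IDD, had an interval of 0.883 to 3.32. Without the filter it did not pass (edgeR, adjusted p = 0.160).

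miR-300-3p, a neighbour of miR-382, had 6, 4 and 5 tags in IDD 1, 2 and 3 and was blank in Sham. Its IDD mean was 1.48 times a floor of 3 counts per Sham library. That floor is for a count of 0 and not of 1, and leaves out counting error in IDD, so it bounds no fold. Without the filter, and with blanks taken as 0, miR-300-3p passed as higher (edgeR, adjusted p = 0.000681), as did 26.5% of the 442 sequences. miR-341 had 3 and 2 tags in IDD 1 and IDD 2 alone. miR-134-5p, which limits the growth of dendritic spines in rat neurons, had 2 tags in Sham 3 alone.

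Summed by position, the tags of the locus did not all differ in one direction. The 3 sequences within the span of Rtl1 (miR-127-3p, miR-434-3p and miR-136-3p) held 24, 25 and 26 tags in IDD 1, 2 and 3 and 17, 23 and 17 in Sham 1, 2 and 3. In CPM this was 110 ± 17.5 in IDD and 90.8 ± 9.48 in Sham, and the groups overlapped. The 2 sequences between Rtl1 and miR-379 (miR-341 and miR-370-3p) held 21.4 ± 5.27 CPM in IDD and 44.7 ± 2.49 CPM in Sham. There the groups did not overlap. The 7 sequences from miR-379 to miR-134 held 151 ± 14.4 CPM in IDD and 227 ± 18.9 CPM in Sham. Without miR-379-5p the sum of the other 6 was higher in IDD, with 54.5 ± 3.63 CPM in IDD and 27.8 ± 9.56 CPM in Sham (SD, n = 3 each). Of those 6, miR-300-3p, miR-382-3p and miR-411-5p had more tags in IDD, miR-411-3p and miR-134-5p had fewer, and miR-382-5p had 6 in each group. These sums are given as a description, and their division by position was made after the values were seen. The direction without miR-379-5p follows in part from removing a sequence that was lower in IDD. Of the 38 IDD tags of those 6, miR-300-3p gave 15 and miR-411-5p 7, both blank in Sham and taken as 0.

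The established miRNAs whose levels ran most like those of each tested member over the 6 libraries were found by the root mean square difference of log2 CPM, each centred on its own mean. Nearest to miR-379-5p among 107 were miR-322-5p (0.12), miR-101b-3p (0.12), miR-423-3p (0.20) and miR-151-3p (0.23), where the median over all 107 was 0.64. Their log2 fold changes were −1.04, −0.88, −1.05 and −1.26, a direction that follows from how they were picked. Nearest to miR-127-3p were miR-27a-3p (0.18), miR-218a-5p (0.20), miR-378a-3p (0.20) and miR-140-3p (0.21), with a median of 0.39 over all. Their log2 fold changes were 0.16, 0.21, 0.25 and 0.29, for which the same holds.

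Summed levels of miRNAs listed as markers of cell or tissue types did not overlap between the groups for most lists, and none was tested as a list. Other cells can also make these miRNAs, so a sum is not a measure of a cell type. The values are summed CPM ranges over the 3 libraries of a group unless said otherwise. The 6 listed skeletal muscle sequences, nearly all of it miR-1b, held 349802 to 413196 in IDD and 217833 to 241246 in Sham, and the 4 cartilage sequences, led by miR-140-3p, 115782 to 120978 and 90837 to 103211. The 8 fibroblast and mesenchyme sequences, led by miR-21-5p, held 12883 to 13755 in IDD and 8615 to 9144 in Sham. The 2 red blood cell sequences, led by miR-486, held 695 to 759 in IDD and 921 to 949 in Sham, and the 2 endothelial ones, led by miR-126a-3p, 23.2 to 29.2 and 33.6 to 47.0. The 4 leukocyte sequences, led by miR-146b-5p, held 435 to 507 in IDD and 425 to 470 in Sham. The 2 neural ones, led by miR-128-3p, held 189 to 213 in IDD and 139 to 180 in Sham, and neither miR-124 nor miR-137 was listed. The only epithelial sequence, miR-200a-3p, was blank in IDD and held 127 to 361 in Sham. The liver miRNA miR-122-5p held 7659 to 7873 in IDD and 7753 to 8242 in Sham. The groups overlapped for the leukocyte and liver lists. As a share of established miRNA tags, cartilage (15.7% in IDD and 17.2% in Sham), leukocyte (0.0626% and 0.0779%) and neural sequences (0.0267% and 0.0286%) had a lower mean in IDD, the opposite of their CPM. miR-335, the only listed miRNA from other imprinted loci, had 5, 3 and 5 tags in IDD 1, 2 and 3 and 2 tags in Sham 1 alone. Whether the makeup of the tissue had a part in the locus miRNAs' values was not tested. In such tissue libraries fewer cells that make a miRNA and less of it per cell cannot be told apart.

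**Figure D4:**
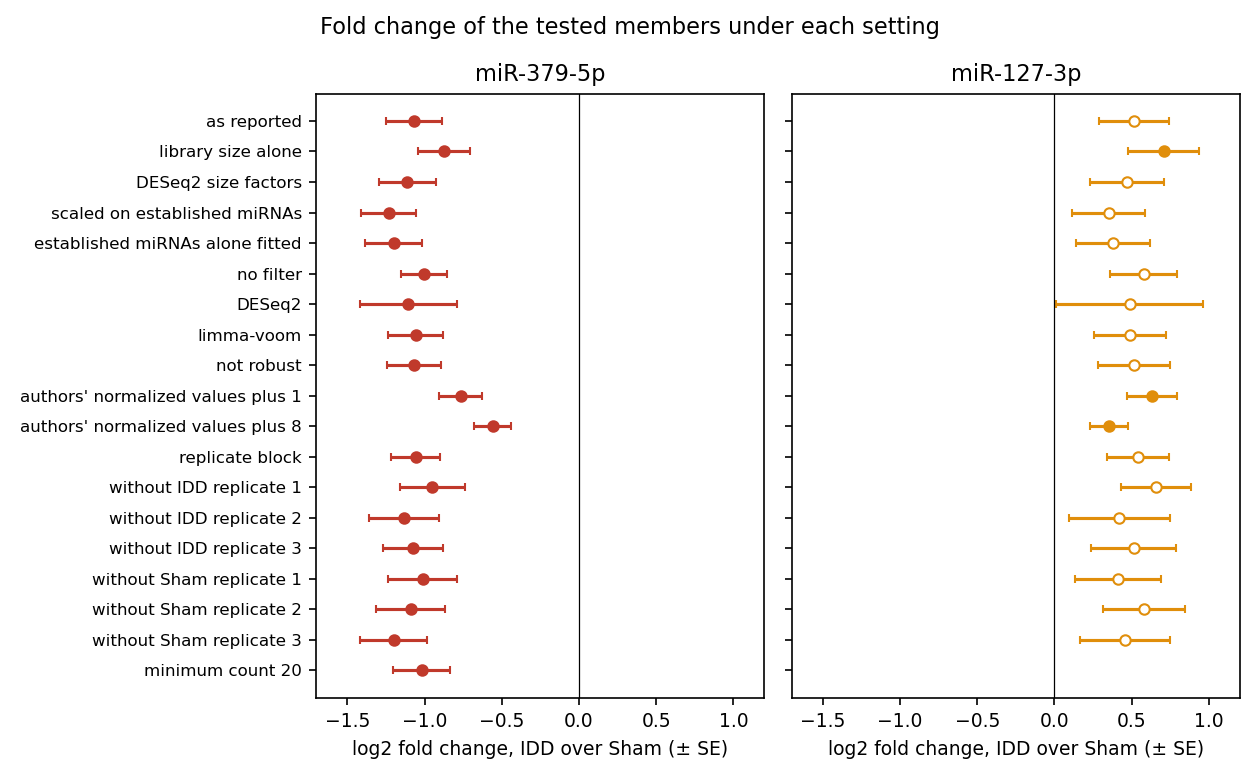
Log2 fold change of IDD over Sham (x axis, bars ± SE) of miR-379-5p and miR-127-3p as reported and under each alternative setting (y axis), filled where the adjusted p was below 0.05. miR-379-5p passed under all 18 alternatives and miR-127-3p under 3 of 17.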

How the data were processed

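Small RNA libraries of miRNA size were prepared from 6 rat nucleus pulposus samples and sequenced (Illumina NovaSeq), per the labels' protocols. The deposited main table gives raw counts of tags for each mature sequence, as its header says. The second deposited table holds normalized tag counts of unstated basis, handled as a score because the authors rounded them, and used in an alternative only. Novoalign 3.02.12, cutadapt 1.9.3 and genome build Rnor_6.0 are named in the submitters' processing notes. No source used here names the miRNA caller. The table's 491 rows were reduced to 442 sequences. Sequences were filtered with filterByExpr (minimum count 10, 131 left), scaled with TMM over whole library totals of 169783 to 253807 tags, and tested with edgeR 4.0.16 (R 4.3.3), robust quasi-likelihood, two-sided, at an adjusted p below 0.05. edgeR's estimate of the variation between libraries beyond counting noise was 10.2% (coefficient of variation). Where replicates vary less than counting noise, edgeR bounds the p by counting noise, so an SE can be too small. Ratios of summed counts use TMM-scaled totals and Clopper-Pearson intervals at 95%. The odds ratio of the within-library balance was added after seeing the data. PCR copies are not independent molecules. The fit was tested on simulated data modelled on the 131 filtered sequences, which does not cover the fit without the filter. Mature and hairpin sequences are RefSeq's (GRCr8) or the deposited ones. Alternatives used DESeq2 1.42.0 and limma 3.58.1, and exact tests scipy 1.17.1. Plots were drawn with matplotlib 3.10.9.

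The members and lists were chosen with earlier results of these data known. Named were all listed miRNAs of the locus, the 4 established miRNAs nearest in pattern to each tested member, and the most abundant miRNA of each marker list. Replicate numbers 1 to 3 are shared by the groups. Same-numbered libraries deviated together from their group means, but weakly (correlations 0.119, 0.111 and 0.167). Between libraries of different numbers the correlations were −0.197 to 0.0793. Deviations from a group mean cancel out within the group, so these values are not independent of the same-numbered ones. As every same-numbered value exceeds 0.1, the number was used as a pairing, but only in the alternatives with a block. The tests as reported are unpaired. The pairing comes from the values and not from a label.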

Additional observations from a re-analysis of the deposited data

How the results depend on the processing

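miR-379-5p fell and passed under all 18 alternatives, with log2 fold changes of −1.23 to −0.56 and adjusted p of 8.32e-06 to 0.00677. Leaving out each library gave −1.20 to −0.95. miR-127-3p was above 0 under its 17 alternatives (0.35 to 0.71, adjusted p from 0.00517 to 0.420) and passed under 3, with library size alone (0.71), and with limma on the authors' normalized values plus 1 (0.63) and plus 8 (0.36, adjusted p = 0.0133). It was removed by a minimum count of 20, and leaving out each library gave 0.41 to 0.66. With the replicate number as a block the log2 fold changes were −1.06 (adjusted p = 5.91e-05) and 0.54 (adjusted p = 0.140), and the block changed no call of either. The within-library ratio fell in all 3 same-numbered pairs with the block (exact sign-flip p = 0.25, the smallest that 3 pairs allow). As every IDD ratio lay below every Sham ratio, any pairing would give this, so it does not bear on the pairing. The difference in the log2 ratio was −1.65 to −1.39 without each library. On established miRNA tags the log2 ratio of shares, IDD over Sham, moved from 0.71 to 0.13 for miR-127-3p, from −0.86 to −1.46 for miR-379-5p and from −0.17 to −0.76 for the 7 together. Without each library these shares of all tags gave 0.55 to 0.85, −0.96 to −0.74 and −0.23 to −0.063. The 78 calls over all sequences became 285 without the filter, where 442 were tested, and 58 to 77 without each library. Library size alone, the authors' values plus 1 and scaling on established miRNAs moved the median log2 fold change by 0.19, 0.26 and −0.16, and gave 52 higher and 29 lower, 56 and 29, and 29 and 44, against 38 and 40 as reported. The 5 rarer miRNAs have at most 4 tags a library, and their calls without the filter rest on taking blanks as 0.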

Other observations

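Replicate counts of some locus miRNAs had a variance below their mean. For counts that vary by counting alone, the variance equals the mean on average. With 3 replicates a single value often falls below it, and so does a median over sequences. For miR-379-5p the variance over the mean was 0.0455 in IDD (21, 22 and 23 tags, in libraries of 246422, 189802 and 214761 tags) and 1.81 in Sham. For miR-127-3p it was 0.0816 in IDD and 0.516 in Sham, and miR-382-5p had 2 tags in every library. For miR-382-3p and miR-134-5p in Sham, each listed in 1 library, it was 2. Among established miRNAs listed in all 3 libraries of a group with a mean count of 5 to 15, the median was 0.333 over 31 sequences in IDD and 0.351 over 39 in Sham. Of these, 24 in IDD and 31 in Sham lay below 1. At mean counts of 15 to 60 the medians were 1.25 over 37 sequences and 1.52 over 27. At mean counts of 2 to 5 they were 0.308 and 0.143, but there the lowest listed count of 2 and the demand for a listing in all 3 libraries also narrow the spread. Whether the counts were more even than counting alone would give was not tested.

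RefSeq's miR-379-3p, the arm of Mir379 that was not listed, matches miR-411-3p at 19 of 20 bases when read from its second base. The table does not state how tags of such close sequences were assigned.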
